A study of Oryza nivara and Oryza rufipogon with 42 samples.

Results

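Panicles of the annual wild rice Oryza nivara were compared between the flowering stage and the heading stage, using the 12 digital gene expression (DGE) libraries whose labels name that species and those stages, of 42 samples in all. DGE counts a short tag cut from each transcript, so that 1 transcript gives 1 tag whatever its length. The flowering group held plants 197, 25, 40, 34, 52 and 80, and the heading group held plants 52, 33, 26, 80, 39 and 133, where the number in a library title was taken as the plant. Each group had 3 plants collected in 2009 and 3 collected in 2010. Per the labels they were greenhouse-grown accessions from India, Thailand, Nepal and Myanmar, with no treatment and no genetic change. Plants 52 and 80 gave a library at both stages. The other samples of the series used here were 6 O. nivara flag leaf libraries, 18 libraries of the perennial relative O. rufipogon, and 1 RNA-seq library of each O. nivara stage.

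Heading is the emergence of the panicle from the leaf sheath, and flowering is the opening of its florets. Inside the anther, the tapetum is a nurse layer that is switched on by a cascade of transcription factors, makes the lipid precursors of the pollen wall and then degenerates. Pollen that has finished its divisions stores the transcripts of cell wall loosening proteins, profilins and pollen-specific MADS proteins that serve germination and tube growth, while the green bracts of the floret, the lemma and palea, carry out photosynthesis. No file gives a name beside a locus number, so each symbol printed here rests on what is generally known of rice loci and was not checked against an annotation. The panicle is a mixed organ, and in such bulk samples fewer cells of a type and less RNA per cell cannot be told apart.

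The 12 libraries held 1725036 to 4044371 counts. Floral organ identity genes summed to 1897 to 2647 CPM (counts per library size, with TMM scaling over all 36 DGE libraries and per 1e6 counts) in flowering panicles and 1334 to 2787 in heading panicles, against 430 to 1332 in flag leaves. The first principal component of the 12 libraries held 30.7% of the variance, and collection year accounted for 63.9% of it. The second held 25.1%, and stage accounted for 60.7% of it.

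The library labelled heading, plant 52, went against its label in some measures and with it in others. Its mean correlation across genes was 0.655 with the other heading libraries and 0.715 with the flowering libraries, or 0.677 without the flowering library of the same plant, with which it correlated at 0.908. No other of the 12 libraries was closer to the opposite stage, with or without the same plant. The mature pollen list summed to 2258 CPM in it, within the flowering range and against 47.2 to 162 CPM in the other 5 heading libraries. The pollen wall list summed to 928 CPM in it, below the 2049 to 7109 CPM of the other 5 and above the 136 to 627 CPM of the flowering libraries. The tapetum regulator sum, 181 CPM, lay within the range of the other heading libraries and above every flowering library, and the photosynthesis sum, 10649 CPM, lay within the range of both stages. On the second principal component it stood at -51.0, where the other heading libraries had -145 to -15.9 and the flowering libraries 3.41 to 151. Whether it was taken later than the others or carries another library's label was not tested. Results are therefore given with and without it. Among flowering libraries, plants 34 and 197 had the lowest mature pollen sums, 193 and 496 CPM, where the other 4 had 1260 to 4671 CPM.

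**Figure D1:**
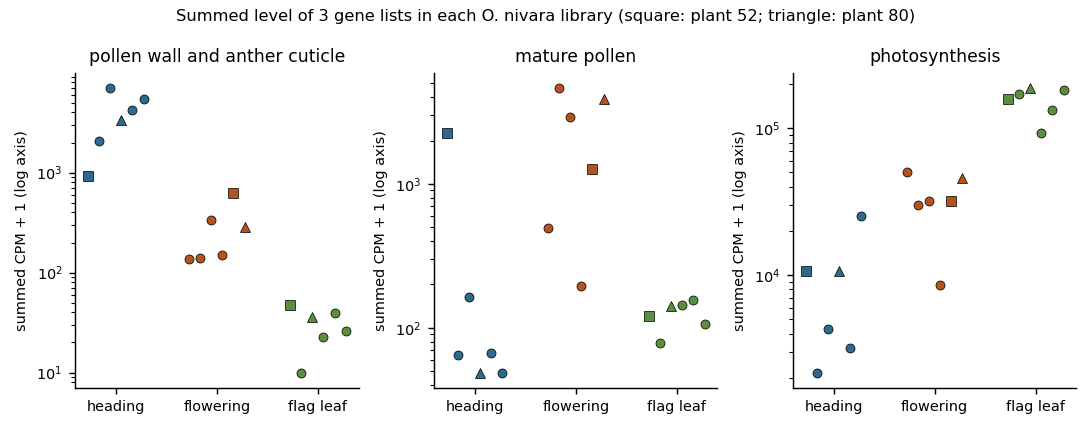
Summed level (CPM + 1, log axis) of the pollen wall, mature pollen and photosynthesis lists in each O. nivara library, by tissue and stage; each point is 1 library, squares are plant 52 and triangles plant 80. The heading library of plant 52 lies at 2258 CPM in the mature pollen panel, among the flowering libraries, and at 928 CPM in the pollen wall panel, below the other heading libraries and above the flowering ones.

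Genes of pollen wall synthesis and 4 of 7 tapetum regulators were lower in flowering panicles, and genes of photosynthesis were higher. Of the mature pollen genes, 3 of 10 were called higher with all libraries. Of 20018 genes tested, 2575 were called different by edgeR at an adjusted p under 0.05, which is 12.9%, with 1361 higher at flowering (6.8%) and 1214 lower (6.06%). The median log2 difference of all genes was 0.0053, and the median size among called genes was 2.18 on the log2 scale. In 596 called genes the 6 flowering and 6 heading libraries did not overlap, with 267 above and 329 below. Whether called or not, the groups did not overlap in 1.52% of tested genes with flowering above and in 1.84% with flowering below. Without heading plant 52 the called genes numbered 3082 (15.3% of those tested), of which 2404 were among the 2575. With the title number as a replicate block, which rests on the plants that gave more than 1 organ, 46 genes were called (0.23%), 43 higher (0.215%) and 3 lower (0.015%).

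**Figure D2:**
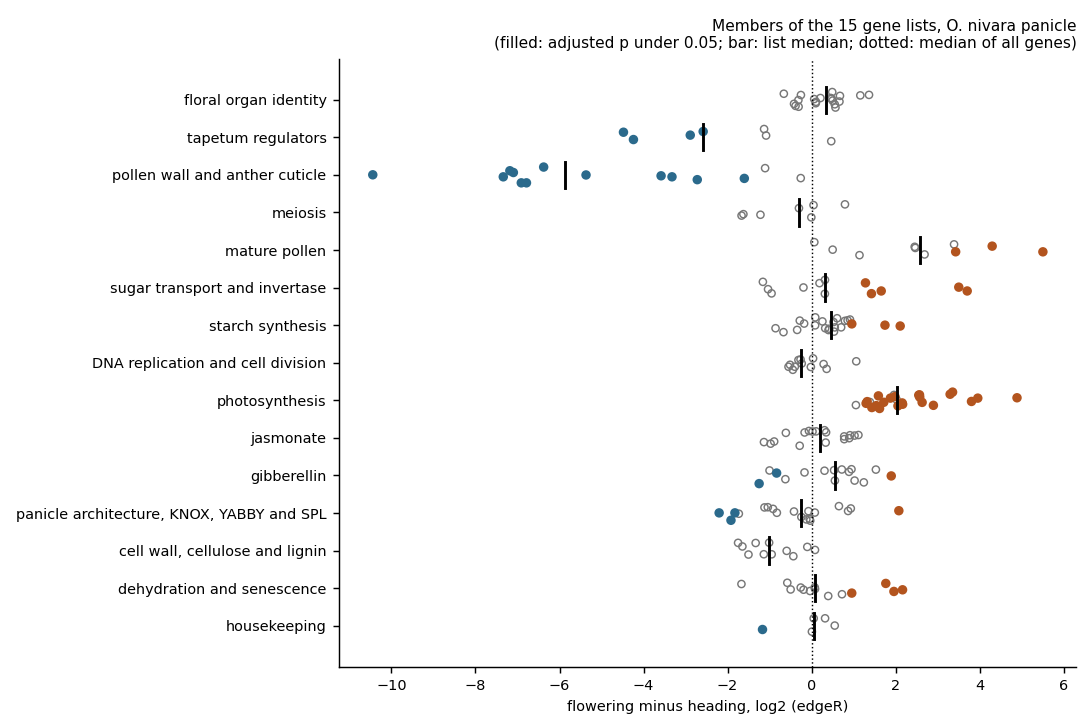
Difference between flowering and heading panicle (log2, edgeR) for every tested member of the 15 gene lists; each circle is 1 gene, filled where the adjusted p was under 0.05, the bar is the list median and the dotted line the median of all genes, 0.0053. Filled circles of the tapetum and pollen wall lists lie to the left and those of the photosynthesis and mature pollen lists to the right.

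Of the transcription factors that drive the tapetum, 4 were lower at flowering. Of 7 tested members of the tapetum regulator list, 4 fell, against 6.06% of all genes, and none rose. The list median was -2.58. TIP2 (LOC_Os01g18870), a bHLH factor early in the cascade, ranged from 0 to 4.49 CPM in flowering libraries with a median of 0.959, and from 5.13 to 160 CPM in heading libraries with a median of 17.2. The groups did not overlap, and the highest heading library was plant 33. The means were 1.65 ± 1.67 and 41.0 ± 60.1 CPM (SD, n = 6), and the log2 difference was -4.48 (SE 0.95, edgeR adjusted p = 0.00212).

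UDT1 (LOC_Os07g36460), a bHLH factor needed for tapetum differentiation, fell from 10.5 ± 7.97 to 1.65 ± 1.49 CPM (log2 difference -2.58, SE 0.65, edgeR adjusted p = 0.00744). EAT1 (LOC_Os04g51070), which acts later and promotes tapetal cell death, fell from 18.2 ± 26.0 to 0.945 ± 1.31 CPM (-4.24, SE 1.18, adjusted p = 0.0151). Its heading values were uneven, with 64.5 CPM in plant 26 and 34.1 in plant 133 but 0.337 in plant 80 and 0.466 in plant 52, and its groups overlapped. TDR (LOC_Os02g02820), their bHLH partner, fell from 37.9 ± 19.4 to 8.64 ± 10.9 CPM (-2.89, SE 0.91, adjusted p = 0.0321), with flowering plants 52 and 80 at 16.5 and 27.3 CPM, above the lowest heading library at 13.7. The receptor kinase MSP1, its ligand gene TDL1A and GAMYB were not called, with log2 differences of -1.13, 0.46 and -1.09.

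Without heading plant 52 the same number, 4 of 7, fell, against 6.91% of all genes, and the median was -2.76. Leaving out heading plant 26 or 133 ended the call of EAT1, and 5 single libraries each ended that of TDR (flowering 197, 25, 34 and 52 and heading 39). With the replicate block none of the 7 was called, with or without heading plant 52. With the title number as a random block (limma-voom) 3 fell, UDT1, TIP2 and MSP1, against 6.84% of all genes. The list median was -2.55 within 2009, with 1 called, and -0.84 within 2010, where no gene in the table was called. TIP2 was at -7.04 within 2009 and -1.02 within 2010. Heading plant 52 and the plants with a library at both stages, 52 and 80, were all of 2010. Between the paired libraries the list median was -0.65 in plant 52 and -0.40 in plant 80, on the log2(CPM + 1) scale. In O. rufipogon no member was called, with a median of -1.40.

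Enzymes and transporters that build the pollen wall and the anther cuticle showed the deepest falls of the lists. Of 14 tested members, 12 fell, against 6.06% of all genes, and none rose. The list median was -5.87, or -5.12 with the members of 0 to 3 counts at flowering placed at their bound. ACOS12 (LOC_Os04g24530), an acyl-CoA synthetase for sporopollenin precursors, ranged from 0 to 1.37 CPM at flowering with a median of 0.169, and from 0.233 to 883 CPM at heading with a median of 380. Heading plant 52 was the low value, and the other 5 heading libraries had 282 to 883 CPM. The means were 0.342 ± 0.530 and 449 ± 325 CPM, and the log2 difference was -10.44 (SE 1.89, edgeR adjusted p = 0.000586). With the random block its adjusted p was 0.128.

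OsABCG15 (LOC_Os06g40550), a transporter that exports wall lipids from the tapetum, had a mean of 0.551 ± 0.553 CPM at flowering and 48.8 ± 30.9 at heading (log2 difference -6.38, SE 1.23, edgeR adjusted p = 0.00097). It was the only member of the list whose groups did not overlap: the highest flowering library had 1.37 CPM and the lowest heading library, plant 52, had 1.40. OsPKS1 (LOC_Os10g34360), a polyketide synthase of the sporopollenin pathway, had 2.02 ± 1.21 and 197 ± 142 CPM (-6.79, SE 1.33, adjusted p = 0.00117).

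The fatty acid hydroxylases CYP703A3 (LOC_Os08g03682) and CYP704B2 (LOC_Os03g07250) had log2 differences of -7.10 (SE 1.46, adjusted p = 0.00165) and -7.34 (SE 1.57, adjusted p = 0.00227) by edgeR. OsC6 (LOC_Os11g37280), a lipid transfer protein, was at 0.338 to 24.7 CPM in flowering libraries and 14.2 to 4230 CPM in heading libraries. Its low heading values were plant 33 at 14.2 and plant 52 at 44.1 CPM, within or near the flowering range, while plant 26 was highest. Its log2 difference was -7.18 (adjusted p = 0.00187).

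OsCP1, a cysteine protease of the tapetum, had no count in any flowering library and 78 counts over the heading libraries, which is at least 25.7-fold lower at flowering against a floor of 3 counts over the group. OsPKS2 had 3 counts at flowering, and its ratio had a 95% counting interval of 47.2 to 676. DPW, RTS, RAFTIN1 and OsABCG26 were the other members that fell, with log2 differences of -3.32, -3.58, -2.72 and -1.60. WDA1, of cuticular wax synthesis, and the invertase OsINV4 were not called, at -1.11 and -0.26.

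Heading plant 52 held low counts of most of these genes, so leaving it out deepened the falls: the median became -6.35, or -5.49 at the bounds, with 11 of 14 called lower, against 6.91% of all genes, and OsABCG26 at an adjusted p of 0.0514. The random block called 8 lower, with a median of -4.13, and lost ACOS12, CYP704B2 (adjusted p = 0.0867), OsPKS2 and OsCP1. The replicate block called none of the 14, and that block without heading plant 52 called none either, with a median of -4.55. With all libraries, plant 52 contributes to the block a pair whose list median difference was -0.21 on the log2(CPM + 1) scale, against -3.67 in plant 80.

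**Figure D3:**
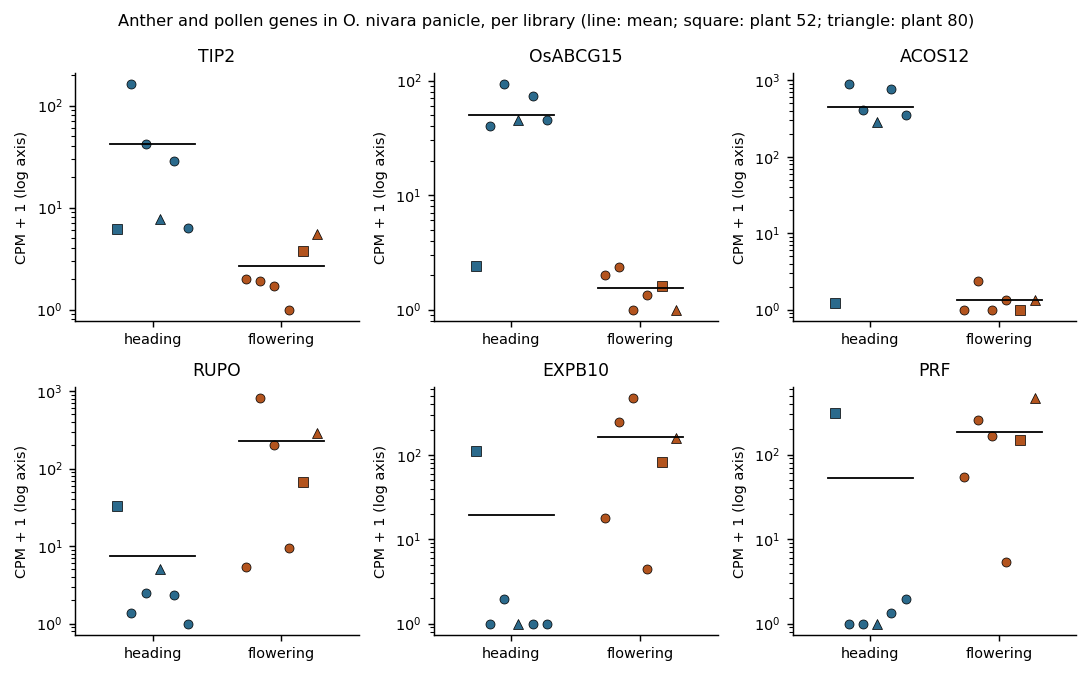
CPM + 1 (log axis) of 6 anther and pollen genes in the 6 heading and 6 flowering libraries; each point is 1 library, the line is the mean, squares are plant 52 and triangles plant 80. The square in the heading column lies with the flowering libraries for ACOS12 at 0.233 CPM, EXPB10 at 110 CPM and PRF at 313 CPM.

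In the mature pollen list the count of calls depended on heading plant 52 and on the fit. With all libraries 3 of 10 tested members rose by edgeR, against 6.8% of all genes, and none fell. The list median was 2.57. DESeq2 called 4 higher, against 8.76% of all genes. The random block called 6 higher, with a median of 4.54, against 6.15% of all genes, and neither OsMADS62 nor OsMADS68 was among them. Without heading plant 52, 8 of 10 rose against 8.43% of all genes, and the median was 6.82. That library was set apart partly for its sum of this same list. The calls and adjusted p of these genes without it are therefore no separate test. RUPO (LOC_Os06g03610), a receptor kinase of the pollen tube, ranged from 4.36 to 804 CPM at flowering with a median of 134, and from 0 to 31.7 CPM at heading with a median of 1.41. The highest heading library was plant 52, and the other 5 had at most 4.04 CPM, below every flowering library. The means were 229 ± 304 and 6.49 ± 12.4 CPM, and the log2 difference was 5.50 (SE 1.41, edgeR adjusted p = 0.00873).

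The pollen MADS-box factors OsMADS62 (LOC_Os08g38590) and OsMADS68 (LOC_Os11g43740) rose by 4.29 (SE 1.14, adjusted p = 0.0113) and 3.42 (SE 0.99, adjusted p = 0.0195) on the log2 scale by edgeR. OsMADS62 stood at 95.3 CPM in flowering plant 25 but at 0.338 and 0.670 CPM in plants 34 and 197, within the heading range of 0 to 3.26. The call of OsMADS68 was lost when flowering plant 25 or heading plant 33, 26 or 39 was left out. OsMADS63 (LOC_Os06g11970), a further factor of the kind, had a log2 difference of 1.14 (adjusted p = 0.541) with all libraries and 4.06 (adjusted p = 0.00104) without heading plant 52.

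The β-expansin EXPB9 (LOC_Os10g40090), a wall-loosening protein of grass pollen, had 34.8 to 1862 CPM at flowering with a median of 669, and 0.375 to 927 CPM at heading with a median of 3.21. Heading plant 52 was the value of 927, and the other 5 were at 16.6 CPM or less. Its log2 difference was 3.39 (SE 1.49, edgeR adjusted p = 0.14), and 7.41 (adjusted p = 0.000248) without that library.

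EXPB10 (LOC_Os03g01640), a second such gene, had 162 ± 175 CPM at flowering and 18.5 ± 44.8 at heading (edgeR adjusted p = 0.577, and 0.00235 with the random block). Of its heading counts, 110 CPM lay in plant 52, and the other 5 libraries had 0.977 CPM in plant 26 and none elsewhere (adjusted p = 1.01e-05 without plant 52). The profilin PRF (LOC_Os10g17680), an actin-binding protein of pollen, had 182 ± 163 and 52.4 ± 128 CPM, with 313 CPM in heading plant 52 and at most 0.934 in the other 5. Its adjusted p was 0.554 with all libraries, 0.00534 with the random block and 3.81e-05 without plant 52. A neighbouring profilin gene, LOC_Os10g17660, had log2 differences of 2.45 (adjusted p = 0.498) and 8.06 (adjusted p = 0.000349) in the same order. The protease AP65 and the channel CNGC13 were not called in either fit, with log2 differences of 0.06 and 0.50 over all libraries.

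The paired plants differed from each other. Between the flowering and heading libraries of plant 80 the median difference of the list was 5.01 on the log2(CPM + 1) scale, and between those of plant 52 it was 0.0058. With the replicate block none of the 10 was called, and with the block but without heading plant 52, 4 rose, against 1.96% of all genes.

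**Figure D4:**
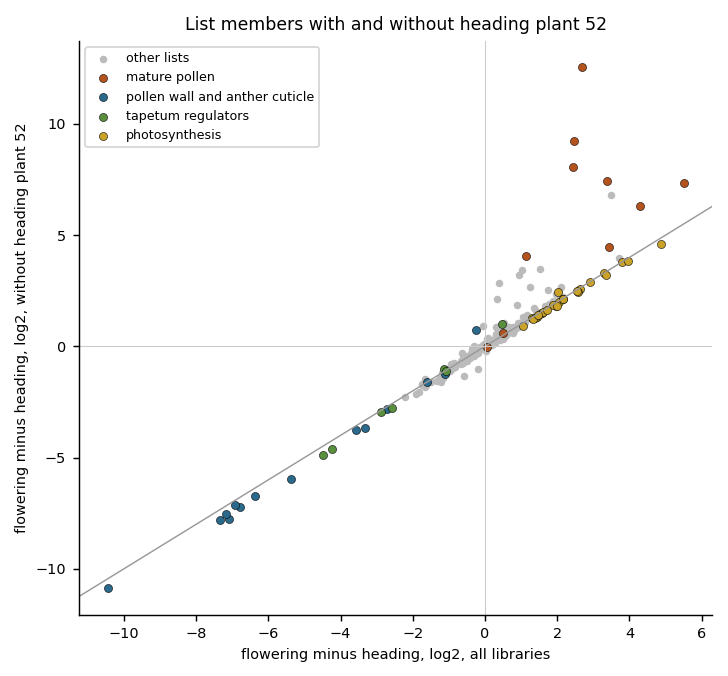
Difference between flowering and heading panicle (log2, edgeR) of the list members, with all libraries (x axis) and without heading plant 52 (y axis); each point is 1 gene, coloured by list, and the line marks equality. Mature pollen genes lie above the line, with a median of 2.57 on the x axis and 6.82 on the y axis; fitted values of genes with few counts, such as EXPB10, are not bounds.

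Photosynthesis genes were higher at flowering as a group. Of 27 tested, 22 rose, against 6.8% of all genes, and none fell. The list median was 2.02. RBCS3 (LOC_Os12g19381), a small subunit of the carbon-fixing enzyme Rubisco, ranged from 1093 to 18455 CPM at flowering with a median of 6245, and from 69.4 to 3731 CPM at heading with a median of 601. The groups overlapped, since heading plants 133 and 52 were above flowering plant 34. The means were 8143 ± 6236 and 1120 ± 1424 CPM, and the log2 difference was 3.80 (SE 0.50, edgeR adjusted p = 3.31e-05). RBCS4 (LOC_Os12g19470) rose by 3.29 (SE 0.51, adjusted p = 0.000151). The RBCS genes are close copies of each other, so tags could be split between them.

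RCA (LOC_Os11g47970), which activates Rubisco, rose from 17.3 ± 21.9 to 186 ± 194 CPM (log2 difference 3.95, SE 0.69, edgeR adjusted p = 0.000432). PSBO (LOC_Os01g31690), of the oxygen-evolving complex of photosystem II, rose from 495 ± 461 to 1556 ± 571 CPM (2.16, SE 0.36, adjusted p = 0.00026). Calvin cycle genes showed the same direction, with FBP (LOC_Os03g16050) at 2.89 (SE 0.53, adjusted p = 0.000613) and GAPA (LOC_Os04g38600) at 2.55 (SE 0.45, adjusted p = 0.000533). GAPB (LOC_Os03g03720), the partner subunit of GAPA, was the 1 member of the list without overlap, at 170 to 444 CPM in flowering libraries and 45.4 to 157 CPM in heading libraries. Its log2 difference was 2.15 (SE 0.40, adjusted p = 0.000671).

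The 5 members that were not called were LHCB1.2, LHCB3, LHCA3, PSBQ and PRK, with log2 differences of 1.05 to 2.02. By library the list summed to 8570 CPM in flowering plant 34 and 30052 to 50376 in the other 5, and in heading panicles to 2138 to 4329 CPM in the 3 plants of 2009 and 10649 to 25363 in the 3 of 2010. Flag leaves, the green organ, had 92670 to 189480 CPM, and 26 of the 27 members were higher there than in flowering panicles. The part of leaf-like green tissue in these sums was not tested.

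The list's median difference was 2.95 within 2009, with 5 called, and 1.22 within 2010, where no gene in the table was called. The 2010 libraries include heading plant 52 and the plants with a library at both stages, 52 and 80. Without heading plant 52, 18 rose, against 8.43% of all genes, and the median was 1.98. Without a year term 8 rose, where 844 of all 20018 genes did. With the replicate block 2 rose, RBCS2 and RBCS3, against 0.215% of all genes.

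**Figure D5:**
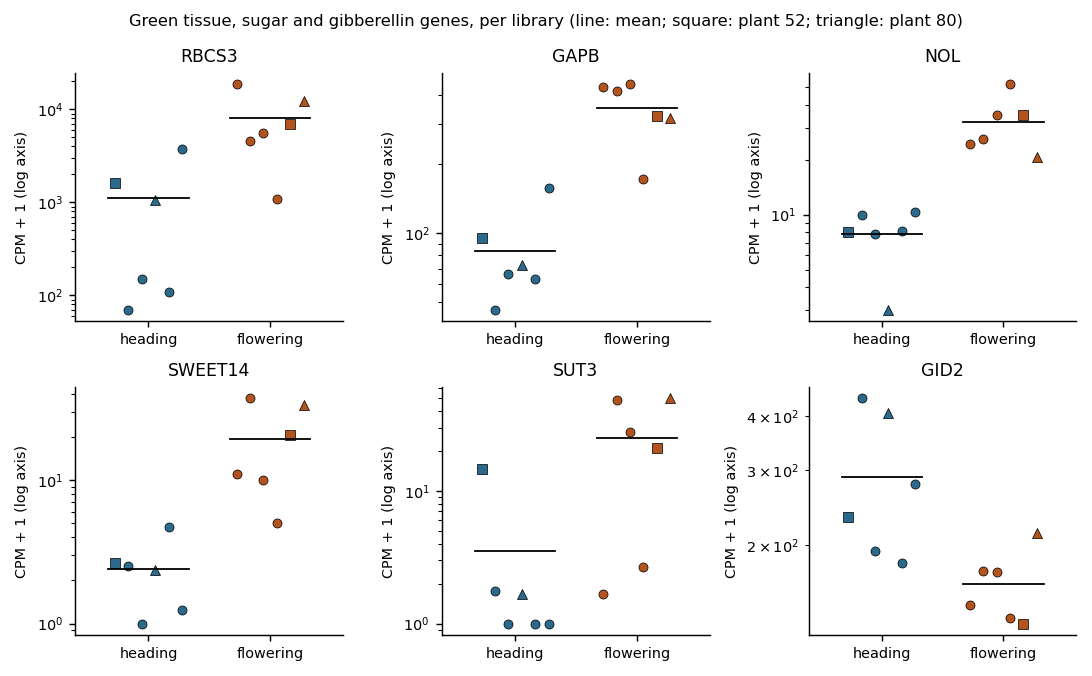
CPM + 1 (log axis) of 6 genes of photosynthesis, chlorophyll breakdown, sugar transport and gibberellin response in the 6 heading and 6 flowering libraries; each point is 1 library, the line is the mean, squares are plant 52 and triangles plant 80. GAPB, NOL and SWEET14 show no overlap between the stages.

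Among dehydration and senescence genes, 4 of 14 rose, against 6.8% of all genes, none fell, and the median was 0.075. NOL (LOC_Os03g45194), a chlorophyll b reductase that starts the breakdown of that pigment, ranged from 19.7 to 50.6 CPM at flowering with a median of 29.6, and from 2.02 to 9.35 CPM at heading with a median of 7.05. All flowering libraries were above all heading libraries, and the log2 difference was 2.16 (SE 0.39, edgeR adjusted p = 0.000544). PAO (LOC_Os03g05310), which opens the chlorophyll ring, rose by 0.95 (SE 0.27, adjusted p = 0.017), a call that was lost without flowering plant 197.

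The NAC factors SNAC2 (LOC_Os01g66120) and NAP (LOC_Os03g21060), of stress response and leaf senescence, rose by 1.76 (SE 0.44, adjusted p = 0.00667) and 1.96 (SE 0.49, adjusted p = 0.00803) by edgeR. NAP was highest in flowering plant 34, at 102 CPM, and its groups overlapped. The other chlorophyll breakdown genes SGR and NYC1 had log2 differences of 0.08 and 0.72 and were not called. Members that respond to drying, LEA3, RAB16A, RAB16B, RAB25, DREB1A, DREB1B and DREB2A, were not called either. The counts were the same without heading plant 52, where 8.43% of all genes rose, and with the replicate block none was called.

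Of 12 genes of sugar transport and cell wall invertase, 5 rose, against 6.8% of all genes, and none fell. The median was 0.31. SWEET14 (LOC_Os11g31190), a sucrose exporter, ranged from 4.05 to 36.0 CPM at flowering with a median of 14.8, and from 0 to 3.72 CPM at heading with a median of 1.42. The groups did not overlap, and the log2 difference was 3.70 (SE 0.73, edgeR adjusted p = 0.00117). It was the 1 member called with the replicate block, at 4.90 (adjusted p = 0.0398).

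SUT1 (LOC_Os03g07480), a sucrose importer of the phloem and grain, rose from 84.6 ± 34.6 to 291 ± 261 CPM (1.65, SE 0.42, adjusted p = 0.00779), with plant 34 at 807 CPM and the other 5 flowering libraries at 86.0 to 287. SUT3 (LOC_Os10g26470), a sucrose transporter of pollen, rose by 3.50 (SE 1.19, adjusted p = 0.0478), and by 6.79 (adjusted p = 0.000182) without heading plant 52. That library had 13.5 CPM where the other heading libraries had at most 0.750, so the value without it is no separate test. The invertases CIN1 (LOC_Os02g33110) and CIN4 (LOC_Os01g73580), which cleave sucrose in the cell wall, rose by 1.42 (SE 0.40, adjusted p = 0.0166) and 1.28 (SE 0.40, adjusted p = 0.0313). Calls of SUT3, CIN4 and CIN1 were lost in 8, 5 and 3 of the 12 fits that each left out 1 library. SWEET11, SWEET15 and SUT4 had log2 differences of -1.04, -1.16 and -0.96, and SWEET4, GIF1, SUT2 and SUT5 of -0.20 to 0.31, and none of these was called.

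In starch synthesis 3 of 22 genes rose, against 6.8% of all genes, and none fell. The median was 0.47. AGPL4 (LOC_Os07g13980), a large subunit of the enzyme that makes ADP-glucose, rose from 15.2 ± 9.77 to 78.2 ± 83.4 CPM (2.10, SE 0.65, edgeR adjusted p = 0.0277), with flowering plants 25 and 40 at 221 and 134 CPM. BEIIb (LOC_Os02g32660), a branching enzyme, rose by 1.74 (SE 0.55, adjusted p = 0.033) with the same pair of plants highest, at 238 and 337 CPM. SSIIb (LOC_Os02g51070), a starch synthase, rose by 0.95 (SE 0.32, adjusted p = 0.0438).

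The call of SSIIb was lost in each of the 12 fits that left out 1 library, that of BEIIb in 8 and that of AGPL4 in 6. GBSSI (LOC_Os06g04200), the Waxy gene of amylose synthesis, was at 92.3 CPM in heading plant 52 and at most 3.42 in the other 5. Its log2 difference by edgeR was 0.40 (adjusted p = 0.862) with all libraries and 2.83 (adjusted p = 0.011) without heading plant 52. Since that library stood out in this gene, the value without it is no separate test. Without heading plant 52 the list again had 3 genes that rose, against 8.43% of all genes, with GBSSI in and SSIIb out. With the replicate block it had none.

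Gibberellin genes were mixed. Of 15 tested, 1 rose and 2 fell, and the median was 0.55. Among all genes 6.8% rose and 6.06% fell, so the rise of 1 member is near the background. The receptor gene GID1 (LOC_Os05g33730) fell from 124 ± 71.4 to 47.6 ± 30.4 CPM (log2 difference -1.25, SE 0.42, edgeR adjusted p = 0.0463). GID2 (LOC_Os02g36974), the F-box protein that removes the repressor SLR1, fell from 288 ± 110 to 161 ± 31.3 CPM (-0.84, SE 0.28, adjusted p = 0.044). GA2ox3 (LOC_Os01g55240), which inactivates the hormone, rose by 1.89 (SE 0.65, adjusted p = 0.0494). Leaving out single libraries ended these 3 calls in 10, 8 and 9 of 12 fits, upper quartile scaling ended 1 of the 2 falls, and RLE scaling ended the rise.

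Some synthesis genes of the hormone had their highest heading level in plant 52. KAO (LOC_Os06g02019), an oxidase of an early step, had 19.9 to 239 CPM at flowering with a median of 153, and 1.69 to 424 CPM at heading with a median of 23.1. Plant 52 held the 424 CPM, and the other 5 heading libraries had at most 34.2. GA3ox1 (LOC_Os05g08540), of the last activating step, had 146 CPM in heading plant 52 and 0.750 to 7.24 in the other 5, against 50.7 ± 48.8 CPM at flowering. Without that library both rose by edgeR, by 3.45 (adjusted p = 0.00148) and 3.46 (adjusted p = 0.00523), where the adjusted p was 0.528 and 0.338 with it. The library left out was the one that stood out in these genes, so the values without it are no separate test. GA20ox3 and GA2ox1 also joined, so that 5 of 15 rose and 2 fell, where 8.43% of all genes rose and 6.91% fell in that fit. With the replicate block none was called.

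Floral organ identity genes did not pass the test in either direction, 0 of 20, where 12.9% of all genes did. Their median was 0.33, with log2 differences of -0.66 to 1.36. Without heading plant 52, 1 rose, OsMADS21, of the ovule, at 1.74 (edgeR adjusted p = 0.0386), where 8.43% of all genes rose. Of 19 tested genes of panicle architecture, 1 rose and 3 fell, with a median of -0.25, where 6.8% of all genes rose and 6.06% fell. The rise of 1 member is near that background. YAB4 (LOC_Os02g42950), a YABBY factor, fell from 29.5 ± 28.8 to 5.68 ± 2.90 CPM (-1.92, SE 0.45, adjusted p = 0.00433), with heading plants 33 and 39 highest at 74.2 and 56.1 CPM. The factors SPL13 (LOC_Os07g32170) and SPL16 (LOC_Os08g41940), both known for effects on grain shape, fell by 2.20 (SE 0.53, adjusted p = 0.00588) and 1.83 (SE 0.61, adjusted p = 0.0438).

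YAB5 (LOC_Os04g45330) rose by 2.07 (SE 0.64, adjusted p = 0.0297). The call of SPL16 was lost in 9 and that of YAB5 in 6 of the 12 fits that left out 1 library, and with the replicate block none of the 4 was called.

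No member was called among 7 tested meiosis genes (median -0.30), 12 DNA replication and cell division genes (-0.25), 18 jasmonate genes (0.20) and 11 cell wall genes (-1.01). Of all genes 12.9% were called, and beside that share 0 calls in lists of this size say little. DESeq2, which called 9.21% of all genes lower, called 1 lower meiosis gene, 1 lower jasmonate gene and 4 lower cell wall genes, and no replication gene. Lower cell wall genes numbered 1 with RLE scaling (6.55% of all genes), 2 with the random block (6.84%) and 1, CESA1, without heading plant 52 (6.91%). Heading plant 33 was highest in the sums of the meiosis and jasmonate lists, at 113 and 3793 CPM. Of 5 housekeeping genes the α-tubulin gene TUBA (LOC_Os03g51600) fell from 1003 ± 597 to 401 ± 187 CPM (-1.19, SE 0.39, edgeR adjusted p = 0.0404), a call lost in 8 of the 12 fits that left out 1 library. The elongation factor eEF1A had 706 ± 101 and 707 ± 138 CPM and a log2 difference of 0.0038.

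Outside the lists the largest changes were in genes for which the files give no name. Among called genes without overlap and with at least 20 CPM in the higher group, there were 188 higher and 250 lower. LOC_Os08g38250 had no count in any heading library and was at least 1100-fold higher at flowering against a floor of 3 counts over the group. Its flowering level was 972 CPM in plant 25 and 394 in plant 40, and 0.670 to 4.14 in the other 4. LOC_Os11g08750 had 2 counts at heading and 3746 at flowering, a ratio with a 95% counting interval of 524 to 15600. Its flowering libraries ranged from 1.04 CPM in plant 80 to 855 in plant 40, with a median of 57.5.

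In the other direction, LOC_Os05g44120 had 1 count at flowering, in plant 80, and 2160 at heading, a ratio with an interval of 383 to 84400. In heading libraries it had 80.5 to 249 CPM, but 0.466 in plant 52. LOC_Os10g05930 fell from 594 ± 494 to 0.5 ± 0.429 CPM (log2 difference -10.14, SE 1.04, edgeR adjusted p = 2.27e-06), with 4.89 CPM in heading plant 52 and 443 to 1512 CPM in the other 5. Of the 12 largest falls, 5, that gene among them, had locus numbers on chromosome 10 within 250 of its own. In that window, chosen after its values were seen, 10 of 16 tested genes fell, that gene included, against 6.06% of all genes, and none rose. Those that fell had heading means of 40.2 to 1005 CPM. Genes so close in number may be copies of each other, among which tags could be split.

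With the replicate block none of the 4 genes named outside the lists was called, at adjusted p of 0.122 for LOC_Os08g38250, 0.205 for LOC_Os11g08750, 0.386 for LOC_Os05g44120 and 0.425 for LOC_Os10g05930. That block without heading plant 52 called the first pair, at 0.0453 and 0.0269, and not the second, at 0.152 and 0.0531. With the random block LOC_Os05g44120 was at 0.0833 and LOC_Os08g38250 at 0.0597, and neither was called.

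In RNA-seq, 1 library of flowering plant 40 and 1 of heading plant 39 were sequenced, the same title numbers as in DGE, so this is another assay and not a further replicate. It has no replicate check. Over the genes called higher by DGE the median difference was 1.85 on the log2(RPKM + 1) scale, and over those called lower it was -1.51, where RPKM is reads scaled by gene length and library size and the median over all tested genes was -0.11. All 27 photosynthesis genes differed by more than 1, against 12.6% of all genes. In the pollen wall list 12 of 14 were below -1, against 12.1% of all genes, and in the mature pollen list 8 of 10 were above 1. RUPO had 174 RPKM at flowering and 0.0472 at heading, and ACOS12 had 0.042 and 342. SNAC2 and NAP, higher by DGE, had differences of -0.14 and -1.45 there, and SUT1 of 0.02.

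The same stage comparison in O. rufipogon called 1643 genes, 837 higher (4.18%) and 806 lower (4.03%). Of the 1361 genes that rose in O. nivara 500 also rose in O. rufipogon, of the 1214 that fell 485 also fell, and none was called in the opposite direction. In the pollen wall list 11 of 14 fell there, in the photosynthesis list 5 of 27 rose with a median of 0.72, and in the cell wall list 7 of 11 fell with a median of -2.40. The difference between species in flowering minus heading was tested by edgeR, which called 0 of 20018 genes (0%). In that test 933 had an unadjusted p under 0.05, and DESeq2 called 9 genes. LOC_Os10g05930 had a log2 difference of -1.58 (adjusted p = 0.601) in O. rufipogon, and the interaction had an adjusted p of 1. A difference between 2009 and 2010 in flowering minus heading was called by edgeR in 0 of 17159 genes (0%). Of these, 878 had an unadjusted p under 0.05. That test did not compare the levels of genes between the years. No other tool was run on it.

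At an equal depth of 1725036 counts, 19377 ± 135 genes were detected in flowering libraries and 19187 ± 202 in heading libraries (SD, n = 6). The difference of 190 genes gave p = 0.0931 in a two-sided exact permutation test, whose smallest possible p is 0.00216. It was 71 genes within 2009 and 309 within 2010.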

How the data were processed

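Per the labels, DGE tags were cut with NlaIII and MmeI. The authors deposited raw DGE counts per gene, which were used for all tests, and the same counts as TPM (scaled to library size, without length), used only to check the counts. RNA-seq values came from the authors as RPKM, and its columns were matched by sample title, leaving off the assay suffix. The genome build is not given in the sources used here. BWA and edgeR 3.6.8 are named per the submitters' processing notes. The table holds genes with 5 TPM or more in at least 4 libraries, so lower genes are not analysed here, and 0.731 to 2.83% of counts lay outside the listed genes.

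The 36 DGE libraries were fitted together in edgeR 4.0.16 (R 4.3.3; TMM, filterByExpr, quasi-likelihood F test) with 6 group means and a collection year term per tissue, and p-values were adjusted by Benjamini-Hochberg over 20018 genes. On simulated data for this comparison with 20018 genes, 58% of 4-fold and 94% of 16-fold changes were recovered, and 4% of 2-fold ones. The simulation changed 50 genes at each fold, far fewer than were called in the data. Its counts had no year or plant effect, so these shares may not carry over to the data. DESeq2 1.42.0 and limma 3.58.1 were alternatives. Floors of 3 counts and 95% exact binomial intervals cover counting error only. RNA-seq used a pseudocount of 1, and its depth is unknown.

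The title number was taken as the plant. The deviations of the flowering and heading libraries from the means of their stage and year correlated at 0.199 in plant 52 and 0.116 in plant 80. Such deviation values for libraries of different plants are not given, so these cannot be ranked as strong or weak. On log CPM the pair of plant 80 correlated at 0.7296, where its libraries averaged 0.5885 and 0.5734 with other plants of the opposite stage. For plant 52 the pair was at 0.9077, against 0.6236 and 0.6769. Each pair also shares its collection year. The correlation within a title number was 0.2092 by limma-voom, and the main fit held no plant term. P-values concern separate plants only as far as title numbers show.

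The members and the 15 gene lists (241 loci, 213 tested) were chosen with earlier results of these data known. Named genes were called list members of lowest p, members needed to describe a list, and outside the lists at most 2 loci a direction, taken from the 12 largest changes among called genes without overlap at 20 CPM or more.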

Additional observations from a re-analysis of the deposited data

Results flagged for a closer look

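Over 134 groups of 6 values (51 genes and 15 list sums at both stages, and genes detected), 31 had a highest or lowest library far from the rest by Dixon's 95% critical gap for 6 values. Chance flags about 1 in 20 groups where values are independent and normal. CPM are skewed, the genes and sums overlap, and some genes were described because heading plant 52 stood out in them, so that rate does not apply to these counts. Of the 31, 13 were heading plant 52, always as the highest library. These were RUPO at 31.7 CPM, OsMADS62 at 3.26, OsMADS63 at 46.6, EXPB9 at 927, EXPB10 at 110, PRF at 313, SUT3 at 13.5, BEIIb at 79.3, GBSSI at 92.3, GA3ox1 at 146 and KAO at 424, and the sums of the mature pollen list at 2258 CPM and of the gibberellin list at 2876 CPM.

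Heading plant 33 was highest for TIP2 at 160 CPM, YAB5 at 10.1 CPM, the meiosis sum at 113 CPM and the jasmonate sum at 3793 CPM. Heading plant 133 was highest for GAPA at 289 CPM and the photosynthesis sum at 25363 CPM, and heading plant 80 was lowest for NOL at 2.02 CPM. Among flowering libraries, plant 25 was highest for RUPO at 804 CPM, OsMADS62 at 95.3 and ACOS12 at 1.37. Plant 34 was highest for SUT1 at 807 CPM and lowest for GAPA at 141 CPM. Plant 80 was highest for GBSSI at 76.0 CPM, GA3ox1 at 145 and LOC_Os05g44120 at 0.345. YAB4 was highest in plant 197 at 11.4 CPM, YAB5 in plant 40 at 35.5 CPM, and detected genes in plant 52 at 19629.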

How the results depend on the processing

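The count of called genes, 2575, was within 1.5 times under RLE or upper quartile scaling, no filter, limma-trend, DESeq2 (3597) and a random replicate block (2600), and 1871 to 3082 when 1 library was left out. It was 1705 without a year term, 1548 against a fold of 1.5, 1647 without flowering plants 34 and 197, 370 in plants of 2009 and 0 in plants of 2010 (3164 at an unadjusted p under 0.05), where 3 libraries faced 3. With the title number as a replicate block it was 46, and 522 with that block and without heading plant 52. Called list members fell to 37 with only the 12 panicle libraries, 33 without a year term, 40 against a fold of 1.5, 15 in 2009, 0 in 2010, 3 with the replicate block and 18 with the block without heading plant 52.

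With the random block the calls were 8 of 14 in the pollen wall list, 3 of 7 in the tapetum list and 6 of 10 in the mature pollen list. Of 44 described genes called, 28 stayed called in each of the 12 fits that left out 1 library. Among the described genes, directions turned only in some that were not called. These were KAO at -0.027 in 2010, PRF at -0.25 with the replicate block, and GBSSI. GBSSI ranged from -0.094 (without flowering plant 80) to 2.83 (without heading plant 52) and was also below 0 without flowering plant 40. Of all 2575 called genes, 8 turned with the replicate block and 11 with that block without heading plant 52. In plants of 2010, 5 turned, and in plants of 2009, 2 turned. Without flowering plants 34 and 197, 2 turned, with or without heading plant 52. The species difference in flowering minus heading called 9 genes by DESeq2. By edgeR it called 0 to 1 when 1 library was left out (1 without heading plant 52). The year difference in flowering minus heading called 0 to 1 in such fits (1 without heading plant 26). The difference in detected genes gave an exact p of 0.0649 to 0.271 over its alternatives. The random block, the block and the species and detection fits without heading plant 52, and the species and year fits without 1 library were chosen after seeing the data. Depth limits genes of few counts.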
